A study of Homo sapiens with 12 samples.

Results

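The TGF-beta and activin ligands, their receptors and the SMAD proteins that carry their signal were followed in MRC5 cells, a line of human embryonic lung fibroblasts, as these cells became senescent after irradiation and were kept in a mitochondrial carrier inhibitor. The 10 genes described here are the ligands TGFB1, TGFB2, TGFB3, INHBA and INHBB, the activin antagonist FST, the receptors TGFBR1 and TGFBR2, and SMAD3 and SMAD7, out of 57500 genes in the count table. They were taken by symbol, each symbol occurred once, and all 10 passed the filter on low counts, which left 16251 genes.

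RNA was sequenced from proliferating cells (Prol), from cells given 20 Gy of X-rays and collected 10 to 12 days later (Sen(IR)), and from irradiated cells cultured with UK5099 (Sen(IR)+UK5099) or with CTPI2 (Sen(IR)+CTPI2), with 3 libraries in each group. UK5099, an inhibitor of the mitochondrial pyruvate carrier, was used at 100 μM, and CTPI2, an inhibitor of the mitochondrial citrate carrier SLC25A1, at 15 or 30 μM, both from day 1 after irradiation. Which CTPI2 dose was sequenced is not stated, so the inhibitors were compared at different doses. All 4 groups are 1 cell line. The labels do not say whether the libraries of a group came from separate cultures, while the study's legends call the RNA-seq replicates independent experiments or conditions. The p-values set each difference against the spread between these libraries, estimated in 1 fit of all 4 groups.

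TGF-beta ligands are secreted in a latent complex and, once released, bind TGFBR2, a type II receptor kinase, which recruits and phosphorylates the type I receptor TGFBR1. TGFBR1 then phosphorylates SMAD2 and SMAD3, which enter the nucleus with SMAD4, and SMAD7 is an inhibitory SMAD that is itself induced by the pathway and targets the receptors for degradation. Activins are dimers of inhibin beta subunits (INHBA or INHBB) that signal to the same SMADs through their own receptors, and follistatin (FST) binds activins and holds them away from those receptors. In fibroblasts the pathway is known for inducing collagens, contractile genes and other matrix genes.

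The libraries held between 20597736 and 28245693 counts. Levels are in CPM, counts scaled to a common library total after TMM normalization, and a floor of 3 counts corresponded to 0.111 to 0.147 CPM. MKI67, a proliferation marker, averaged 235, 11, 0.949 and 12.4 CPM in Prol, Sen(IR), UK5099 and CTPI2 libraries, and CDKN1A, the gene of the cell cycle inhibitor p21, averaged 315, 1054, 1097 and 1088 CPM in the same order. Fibroblast markers were present in every library (8 of 8 tested), and their levels summed to between 20708 and 24498 CPM in Prol, between 19825 and 20391 CPM in Sen(IR), between 10533 and 10977 CPM after UK5099 and between 17404 and 19173 CPM after CTPI2. Marker sums stayed between 8.76 and 12.9 CPM for epithelial, 0.736 and 6.22 CPM for endothelial and 0.772 and 2.16 CPM for leukocyte cells. Endothelial sums were highest in Prol (3.64 to 6.22 CPM) and lowest with UK5099 (0.736 to 1.08 CPM). KDR followed that order, with means of 4.21, 0.948, 0.274 and 1.03 CPM in Prol, Sen(IR), UK5099 and CTPI2. VWF and PECAM1 were instead lowest in Prol, at 0.315, 0.569, 0.562 and 0.864 CPM and at 0.0143, 0.203, 0.0893 and 0.286 CPM. CDH5 had 0 to 5 counts per library. The part of these markers in the results was not tested.

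Senescent cells had far less follistatin RNA than proliferating cells, and more TGFBR2 and SMAD3, while TGFB1 and TGFB2 differed by less than the spread between libraries. TGFB3 and INHBB, both expressed at low levels, were also higher in Sen(IR). INHBB passed the filter on low counts only through irradiated libraries, the side on which it was higher. Calls required an edgeR p under 0.05 after Benjamini-Hochberg adjustment over all genes tested, and an absolute log2 fold change over 0.5. By that rule 5 of the 10 genes were called, 4 higher and 1 lower, in a comparison that called 47.2% of all genes tested, 24.8% as higher and 22.4% as lower. The libraries of Sen(IR) and Prol did not overlap for 7 of the 10, beside 70.9% of all genes.

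Irradiated cells kept in UK5099 had less TGFB2, INHBA, FST, TGFBR2 and SMAD7 RNA than Sen(IR) cells, from 1.59-fold lower for TGFBR2 to 2.85-fold lower for INHBA. These 5 of 10 were called lower and 0 higher, where 12.1% of all genes tested were called lower, 8.76% higher and 20.8% in either direction. The median log2 fold change of the 10 was −0.63, beside 0.00991 over all genes, and 8 of 10 had libraries that did not overlap (56.6% of all genes). The 4 fibroblast markers called lower in the same comparison were COL1A1, COL1A2, COL3A1 and THY1, and 0 were called higher. DCN (−0.00113), LUM (0.0548), PDGFRB (0.0487) and VIM (−0.14), the rest of that list, were not called. The part of the fibroblast markers in the fall of the 5 genes was not tested.

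With CTPI2, 0 of the 10 genes were called by edgeR and 0 by DESeq2, in a comparison where 0.166% of all genes tested were called, 0.0185% as higher and 0.148% as lower. At an unadjusted p under 0.05 there were 3 genes, INHBA, FST and TGFBR1, beside 7.27% of all genes. The libraries did not overlap for 6 of the 10, beside 15.1% of all genes. Both inhibitor comparisons use the same 3 Sen(IR) libraries, so their values are given side by side and not as independent evidence.

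**Figure D1:**
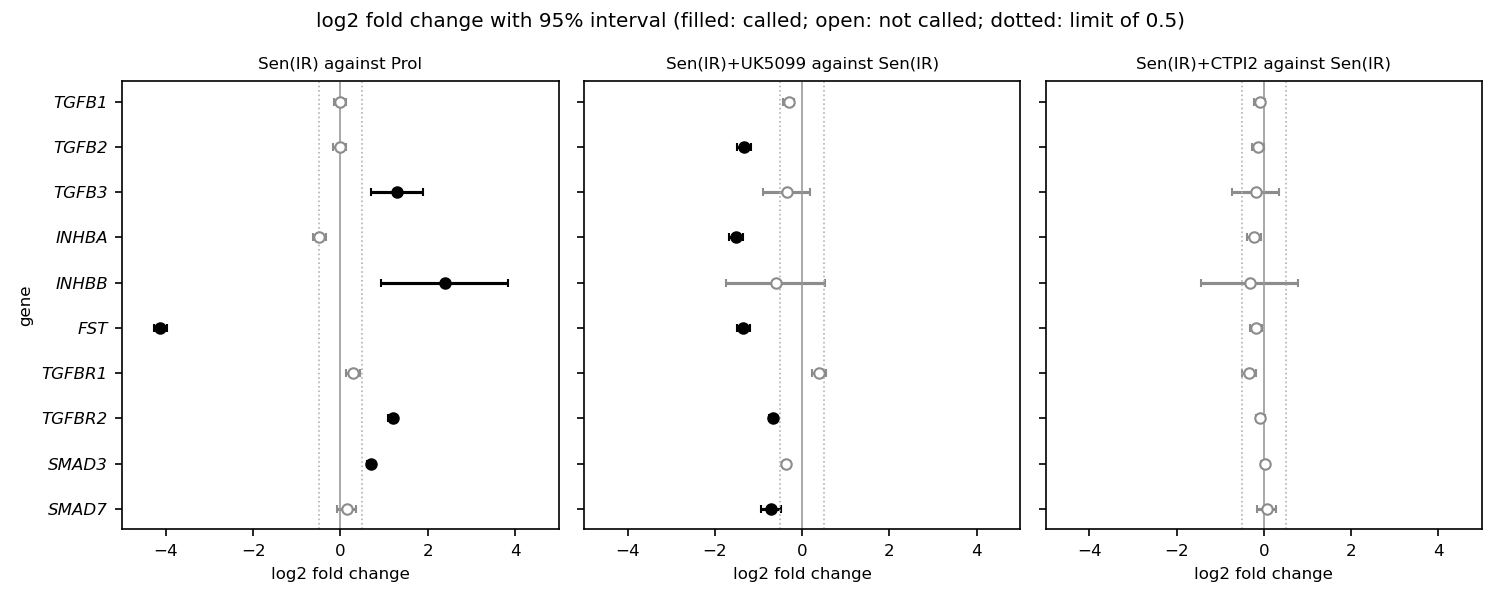
Log2 fold change (horizontal axis) of each of the 10 genes (rows) in Sen(IR) against Prol, Sen(IR)+UK5099 against Sen(IR) and Sen(IR)+CTPI2 against Sen(IR), with 95% intervals. Filled points were called and dotted lines mark the limit of 0.5. The point furthest from 0 is FST in Sen(IR) against Prol at −4.13, and with UK5099 the 5 filled points all lie below 0.

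The plot of log2 fold changes shows the width of the intervals as well: they are widest for INHBB and TGFB3, which had few reads, and narrowest for TGFBR2 and SMAD3.

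TGFB1 (ENSG00000105329, chromosome 19, 41301587 to 41353922, minus strand, GRCh38) encodes the ligand most studied in fibrosis. Its level was 87.1, 82.1 and 87.8 CPM in the Prol libraries, 86.0, 89.1 and 79.9 CPM in Sen(IR), 71.8, 69.5 and 64.7 CPM after UK5099, and 85.2, 79.9 and 73.6 CPM after CTPI2. Prol, Sen(IR) and CTPI2 libraries overlapped, and all UK5099 libraries lay below those of the other groups. The log2 fold change of Sen(IR) against Prol was −0.0108 (95% interval −0.14 to 0.12, edgeR adjusted p 0.888). With UK5099 it was −0.31 against Sen(IR) (SE 0.0629, edgeR adjusted p 3.54e-04), past the p limit but under the fold limit, and with CTPI2 −0.0953 (−0.23 to 0.0349, edgeR adjusted p 0.830). Exons of TGFB1 share 6.59% of their bases with HNRNPUL1 on the other strand, and whether the libraries kept strand is not stated, so reads there could belong to either gene.

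TGFB2 (ENSG00000092969, chromosome 1, 218345336 to 218444619, plus strand) was the only 1 of the 3 TGF-beta ligands called lower with UK5099. It was at 105, 87.1 and 96.4 CPM in Prol and at 94.1, 94.9 and 95 CPM in Sen(IR), then at 36.7, 34.7 and 41.2 CPM after UK5099 and at 78.6, 89.0 and 91.0 CPM after CTPI2. All UK5099 libraries lay below all others, Sen(IR) lay within the range of Prol, and CTPI2 overlapped Prol but stayed below Sen(IR). Against Sen(IR), the log2 fold change with UK5099 was −1.34 (SE 0.0740, edgeR adjusted p 1.48e-12), or 2.52-fold lower, and with CTPI2 −0.14 (−0.28 to 0.0119, edgeR adjusted p 0.736). Between Sen(IR) and Prol it was −0.0203 (−0.17 to 0.13, edgeR adjusted p 0.809). TGFB2 shares 34.3% of its exon bases with TGFB2-OT1 on its own strand and TGFB2-AS1 on the other. TGFB2-OT1 had 0 counts in all libraries. TGFB2-AS1 averaged 4.74, 4.21, 1.53 and 3.56 CPM in Prol, Sen(IR), UK5099 and CTPI2, in each group far below TGFB2. How reads in shared bases were counted is not stated, so these values do not show whether the overlap changed the TGFB2 count.

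TGFB3 (ENSG00000119699, chromosome 14, 75958097 to 75983011, minus strand), the least abundant of the 3 TGF-beta ligands, held 21 to 96 counts per library. Levels were 0.895, 1.84 and 1.23 CPM in Prol, 3.82, 2.70 and 3.23 CPM in Sen(IR), 2.36, 3.26 and 2.01 CPM after UK5099 and 2.28, 2.19 and 4.15 CPM after CTPI2. All irradiated libraries lay above all Prol libraries, and the 3 irradiated groups overlapped each other. TGFB3 rose in Sen(IR) with a log2 fold change of 1.30 (SE 0.286, edgeR adjusted p 3.59e-04). With UK5099 it differed from Sen(IR) by −0.35 (−0.89 to 0.18, edgeR adjusted p 0.284) and with CTPI2 by −0.18 (−0.72 to 0.35, edgeR adjusted p 0.944), intervals wide enough to hold a change past the fold limit.

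**Figure D2:**
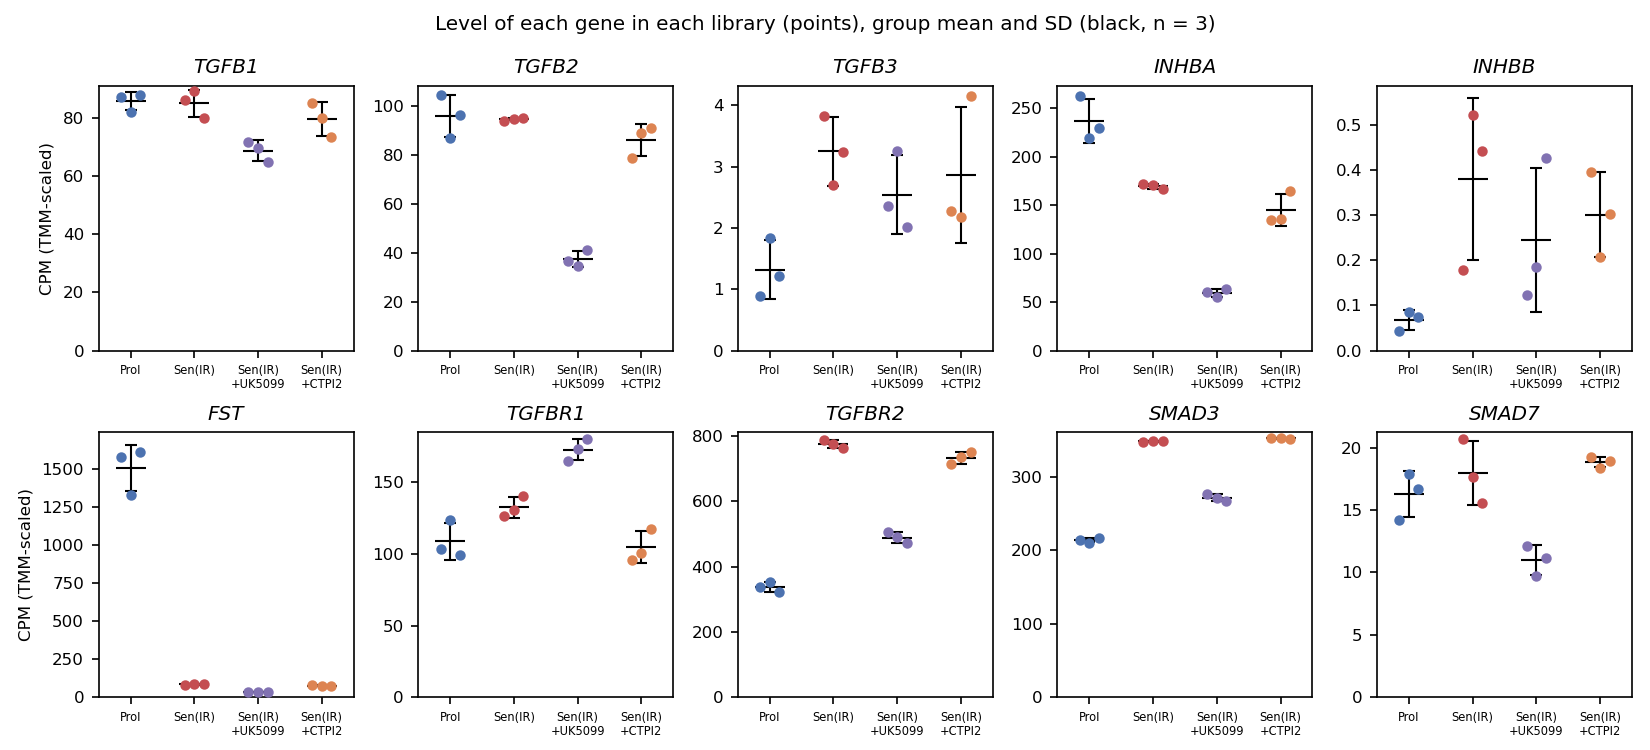
Level of each of the 10 genes in CPM (vertical axes, each from 0) in every library of the 4 groups, 1 point per library, with the group mean and SD in black (n = 3). FST drops from 1332 to 1609 CPM in Prol to under 90 CPM in all irradiated libraries, and TGFB2, INHBA, TGFBR2 and SMAD7 sit lower with UK5099 than in Sen(IR).

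The activin subunit INHBA and the antagonist FST both fell with UK5099, and INHBB had too few counts for a comparison of the irradiated groups. INHBA (ENSG00000122641, chromosome 7, 41667168 to 41705834, minus strand), the subunit of activin A, was at 262, 219 and 229 CPM in Prol, 171, 171 and 167 CPM in Sen(IR), 60.3, 54.9 and 63.6 CPM after UK5099 and 135, 136 and 164 CPM after CTPI2. The 4 groups did not overlap and stood in the order Prol, Sen(IR), CTPI2 and UK5099. Of the neighbours, Sen(IR) and CTPI2 did not pass the p limit, and Prol and Sen(IR) passed that limit only. INHBA fell with UK5099 by 1.51 on the log2 scale (SE 0.0770, edgeR adjusted p 3.49e-13), or 2.85-fold. With CTPI2 the value was −0.23 (SE 0.0739, unadjusted p 0.00584, edgeR adjusted p 0.335). In Sen(IR) against Prol it was −0.48 (SE 0.0732, edgeR adjusted p 4.43e-06), just inside the fold limit, and it passed that limit without Prol replicate 2 (−0.54) or Prol replicate 3 (−0.50). INHBA-AS1, which shares 2.99% of the INHBA exon bases on the other strand, averaged 0.438, 1.14, 0.290 and 0.657 CPM in Prol, Sen(IR), UK5099 and CTPI2.

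INHBB (ENSG00000163083, chromosome 2, 120346136 to 120351803, plus strand), the subunit of activin B, was near the counting floor. It had 1, 2 and 2 counts in the Prol libraries, 4, 11 and 9 in Sen(IR), 3, 5 and 11 with UK5099 and 9, 5 and 7 with CTPI2. Every irradiated library had more than every Prol library, and the irradiated groups overlapped. Summed over libraries, 24 counts in Sen(IR) against 5 in Prol gave a depth-adjusted ratio of 5.52, with an exact interval of 2.07 to 18.5 that covers counting error only, and edgeR called the gene higher (adjusted p 0.00464). The filter asked for 10 counts at the median depth, which no Prol library came near. INHBB thus entered the test only through irradiated libraries, which limits its calls against Prol. The ratio was 0.658 (0.341 to 1.25) for UK5099 against Sen(IR) and 0.798 (0.423 to 1.5) for CTPI2, differences not detectable at this depth.

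FST (ENSG00000134363, chromosome 5, 53480626 to 53487134, plus strand), which shares no exon base with another gene, was the most abundant of the 10 per kilobase of exon in Prol. It was at 1578, 1332 and 1609 CPM in Prol, 82.1, 87.4 and 88.3 CPM in Sen(IR), 32.6, 36.3 and 32.3 CPM after UK5099 and 77.1, 75.5 and 76.3 CPM after CTPI2. The 4 groups did not overlap. FST fell in Sen(IR) by 4.13 on the log2 scale (SE 0.0700, edgeR adjusted p 8.36e-22), or 17.5-fold, and with UK5099 it fell further, by 1.35 (SE 0.0691, edgeR adjusted p 3.82e-13), or 2.55-fold. With CTPI2 it differed from Sen(IR) by −0.17 (SE 0.0659, unadjusted p 0.0163, edgeR adjusted p 0.503). MKI67 was likewise lower in Sen(IR) than in Prol and lower again with UK5099, and its relation to FST was not tested. In RNA from whole cultures, fewer cells expressing a gene and less RNA per cell cannot be told apart, which holds for every gene described here.

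Of the 5 genes called lower with UK5099, TGFB2, INHBA and FST have a single RefSeq transcription start, and their promoters are shown because these genes fell together. Each window runs from 250 bases before to 50 bases after the start (RefSeq, GRCh38.p14, 5′ to 3′ on the gene's strand). Capitals mark matches, on either strand, to CAGAC (a SMAD-type motif), TGANTCA (a loose AP-1-type motif, N being any base) or TATAAA (the TATA box). None of the motifs contains another. The windows are chr1:218345086-218345385 on the plus strand for TGFB2, chr7:41703041-41703340 on the minus strand for INHBA and chr5:53480379-53480678 on the plus strand for FST.
TGFB2: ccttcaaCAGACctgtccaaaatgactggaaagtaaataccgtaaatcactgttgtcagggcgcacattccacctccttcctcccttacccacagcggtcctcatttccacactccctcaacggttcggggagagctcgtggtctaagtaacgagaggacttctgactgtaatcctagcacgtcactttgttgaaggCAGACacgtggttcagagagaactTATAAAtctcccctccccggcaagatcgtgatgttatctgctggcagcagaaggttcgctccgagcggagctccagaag
INHBA: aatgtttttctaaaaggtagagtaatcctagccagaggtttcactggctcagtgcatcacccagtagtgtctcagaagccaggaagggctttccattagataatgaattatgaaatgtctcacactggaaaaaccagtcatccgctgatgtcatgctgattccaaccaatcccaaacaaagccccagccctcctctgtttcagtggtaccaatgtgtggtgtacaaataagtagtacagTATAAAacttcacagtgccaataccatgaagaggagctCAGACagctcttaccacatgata
FST: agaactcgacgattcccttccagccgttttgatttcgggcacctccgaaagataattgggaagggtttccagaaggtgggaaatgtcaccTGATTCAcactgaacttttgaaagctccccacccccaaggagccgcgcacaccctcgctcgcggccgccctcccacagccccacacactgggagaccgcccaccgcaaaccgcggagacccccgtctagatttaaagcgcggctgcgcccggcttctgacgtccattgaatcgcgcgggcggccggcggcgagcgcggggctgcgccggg

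The TGFB2 window held CAGAC at −243 and −53 and TATAAA at −29, counted from the start. In the INHBA window TATAAA stood at −11 and CAGAC at 27, and the FST window held only a TGANTCA match, at −160, which reads TGATTCA. Among 35116 RefSeq promoters of this length, 45.26% held CAGAC, 7.709% TGANTCA and 11.53% TATAAA. The matches are given as letters in these windows and not as bound sites.

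With UK5099, TGFBR2 fell while TGFBR1 had a positive fold change that was not called. TGFBR1 (ENSG00000106799, chromosome 9, 99104038 to 99154192, plus strand), the type I receptor, was at 104, 123 and 99.2 CPM in Prol, 126, 131 and 141 CPM in Sen(IR), 165, 173 and 180.3 CPM after UK5099 and 96.0, 101 and 118 CPM after CTPI2. UK5099 libraries were the highest and Sen(IR) came next, without overlap between them, while Prol and CTPI2 overlapped below. Its log2 fold change was 0.29 in Sen(IR) against Prol (SE 0.0772, edgeR adjusted p 0.00243) and 0.38 with UK5099 against Sen(IR) (SE 0.0763, edgeR adjusted p 2.67e-04), both under the fold limit. With CTPI2 it was −0.34 (SE 0.0774, unadjusted p 2.68e-04, edgeR adjusted p 0.0542), the smallest adjusted p of the 10 genes in that comparison.

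TGFBR2 (ENSG00000163513, chromosome 3, 30606601 to 30694142, plus strand), the type II receptor that binds the ligand first, was at 338, 352 and 323 CPM in Prol, 788, 774 and 764 CPM in Sen(IR), 505, 489.5 and 472 CPM after UK5099 and 713, 735 and 750.0 CPM after CTPI2. No groups overlapped, and in the order Sen(IR), CTPI2, UK5099 and Prol only the neighbours Sen(IR) and CTPI2 did not pass the test. TGFBR2 rose in Sen(IR) with a log2 fold change of 1.20 (SE 0.0479, edgeR adjusted p 8.97e-16), or 2.3-fold. With UK5099 it fell by 0.67 (SE 0.0473, edgeR adjusted p 1.07e-10) and stayed above Prol, at 0.53 (SE 0.0475, edgeR adjusted p 9.61e-10). With CTPI2 the difference from Sen(IR) was −0.0817 (−0.18 to 0.0160, edgeR adjusted p 0.783). Neither receptor gene shares exon bases with another gene.

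SMAD3 (ENSG00000166949, chromosome 15, 67063763 to 67195173, plus strand), the receptor-activated SMAD, varied little between libraries of a group. It was at 214, 210.2 and 217 CPM in Prol, 347, 348 and 348 CPM in Sen(IR), 276, 271 and 267 CPM after UK5099 and 353, 352 and 352 CPM after CTPI2. Groups did not overlap, although Sen(IR) and CTPI2 differed by only 0.0184 on the log2 scale (−0.0712 to 0.11, edgeR adjusted p 0.972). SMAD3 rose in Sen(IR) by a log2 fold change of 0.70 (SE 0.0436, edgeR adjusted p 2.32e-12). With UK5099 the value was −0.36 against Sen(IR) (SE 0.0433, edgeR adjusted p 4.95e-07), under the fold limit, which left it between Prol and Sen(IR). Its exons share 1.82% of their bases with ENSG00000259347.

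SMAD7 (ENSG00000101665, chromosome 18, 48919853 to 48950965, minus strand), the inhibitory SMAD, was at 14.2, 17.8 and 16.7 CPM in Prol, 20.7, 17.7 and 15.5 CPM in Sen(IR), 12.1, 9.74 and 11.2 CPM after UK5099 and 19.2, 18.4 and 18.9 CPM after CTPI2. UK5099 libraries were the lowest without overlap, and Sen(IR) overlapped both Prol and CTPI2. SMAD7 fell with UK5099 by 0.71 on the log2 scale (SE 0.110, edgeR adjusted p 1.59e-05). Its log2 fold change was 0.15 in Sen(IR) against Prol (−0.0756 to 0.37, edgeR adjusted p 0.232) and 0.0680 with CTPI2 against Sen(IR) (−0.15 to 0.29, edgeR adjusted p 0.952).

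Set directly against each other, UK5099 and CTPI2 libraries differed in 6 of the 10 genes, beside 19.9% of all genes tested, of which 8.2% were higher and 11.7% lower with UK5099. TGFBR1 was called higher with UK5099 (0.72, SE 0.0768, edgeR adjusted p 9.05e-08). Lower with UK5099 were TGFB2 (−1.20), INHBA (−1.28), FST (−1.18), TGFBR2 (−0.58) and SMAD7 (−0.78), with edgeR adjusted p from 4.98e-12 for FST to 4.65e-06 for SMAD7. TGFB1 (−0.21, edgeR adjusted p 0.00857) and SMAD3 (−0.38, edgeR adjusted p 2.72e-07) passed the p limit only. The values for TGFB3 (−0.17) and INHBB (−0.28) passed neither limit, with intervals of −0.71 to 0.37 and −1.44 to 0.88.

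Against Prol, the irradiated cells with UK5099 differed in 8 of the 10 genes, 4 higher and 4 lower, where 53.1% of all genes tested were called, 26.9% higher and 26.2% lower. With CTPI2, 6 of the 10 differed, 4 higher and 2 lower, where 46.8% of all genes were called, 24.8% higher and 21.9% lower. FST was 44.6-fold lower than in Prol with UK5099 and 19.7-fold lower with CTPI2, and INHBA 3.97-fold and 1.63-fold lower. TGFB2 (−1.36) and SMAD7 (−0.56) were called lower than in Prol with UK5099, and with CTPI2 they were at −0.16 and 0.21, neither called. The SMAD7 value lay inside the fold limit without Prol replicate 2 (−0.49) or UK5099 replicate 2 (−0.48). The INHBB ratio to Prol was 3.64 (1.31 to 12.5) with UK5099 and 4.41 (1.62 to 15) with CTPI2. Its call with UK5099, at a fitted log2 fold change of 1.78, was lost without any 1 of the Prol replicates (1.57, 1.96 and 1.86) and without UK5099 replicate 3 (1.14), and that with CTPI2 (2.06) without CTPI2 replicate 1 (1.82).

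Levels of different genes can be set side by side only per length, here as CPM per kilobase of the union of exons. In Prol, FST stood highest at 547 ± 55.2 CPM per kb (SD, n = 3), followed by TGFBR2 at 49.3 ± 2.12, INHBA at 28.6 ± 2.75 and TGFB1 at 26.2 ± 0.95. In Sen(IR) the highest was TGFBR2 at 113 ± 1.70 CPM per kb, then SMAD3 at 34.7 ± 0.0580, FST at 31.2 ± 1.22 and TGFB1 at 26.0 ± 1.44. INHBB stayed lowest in all 4 groups, at 0.0211 to 0.118 CPM per kb. The order depends on the length used: with MANE Select transcripts, SMAD3 in Prol was at 33.1 CPM per kb, above TGFB1 at 30.8, and TGFBR2 was at 74.6.

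Follistatin RNA exceeded INHBA RNA in every library, by a factor that depended on the group. On the scale of CPM per kb the FST to INHBA ratio was 19.2 ± 1.69 (SD, n = 3) in Prol, 1.53 ± 0.0772 in Sen(IR), 1.72 ± 0.241 with UK5099 and 1.60 ± 0.173 with CTPI2. The Prol libraries, at 18.1 to 21.1, were far from all irradiated ones, at 1.40 to 1.99, and the irradiated groups overlapped. The TGFBR2 to TGFBR1 ratio was 3.64 ± 0.273 in Prol, 6.84 ± 0.477 in Sen(IR), 3.30 ± 0.258 with UK5099 and 8.19 ± 0.671 with CTPI2. Here Prol and UK5099 overlapped, and Sen(IR) and CTPI2 both lay above them without overlapping each other. These ratios are descriptions, with no test.

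**Figure D3:**
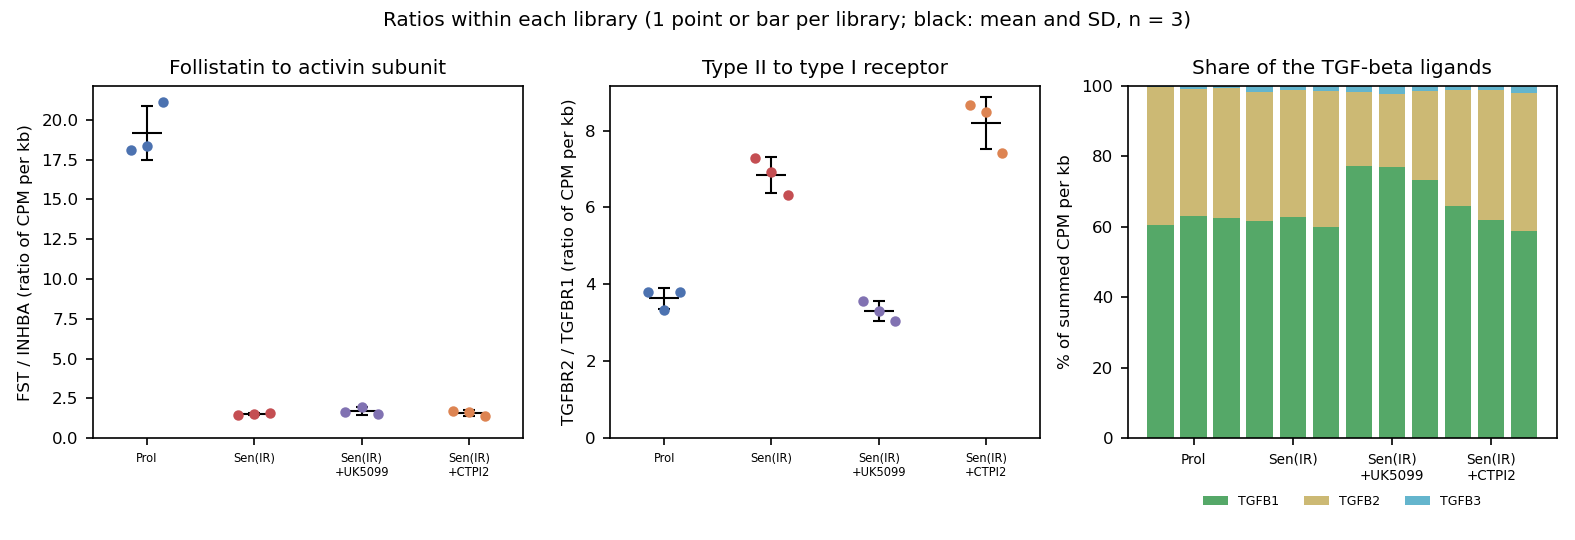
Left and middle, ratio of CPM per kb of FST to INHBA and of TGFBR2 to TGFBR1 in each library (points) with the group mean and SD in black (n = 3). Right, percent of the summed CPM per kb of the 3 TGF-beta ligands held by each, 1 bar per library in the order of the groups. FST to INHBA is 18.1 or more only in Prol, and the TGFB1 share is 73.4% or more only with UK5099.

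Among the 3 TGF-beta ligands, TGFB1 held 62.0 ± 1.35% of the summed CPM per kb in Prol, 61.5 ± 1.41% in Sen(IR) and 62.2 ± 3.66% with CTPI2. With UK5099 its share was 75.8 ± 2.12%, and the bars of the ligand shares show TGFB2 at 22.4 ± 2.42% there, beside 37.0 ± 1.31% in Sen(IR). TGFB3 held 0.606% of the sum in Prol and 1.41 to 1.76% in the irradiated groups. Of its exon bases TGFB2 shares 34.3% with other genes, TGFB1 6.59% and TGFB3 3.12%. How reads in those bases were counted is not stated, which limits the shares as a comparison between the ligands.

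Other genes of the superfamily and its signalling were taken from lists by role, 104 genes in all, of which 84 passed the filter on low counts. In Sen(IR) against Prol, 26 were called higher and 20 lower, with a median log2 fold change of 0.11. With UK5099, 8 were called higher and 28 lower (median −0.24), and with CTPI2 0 higher and 1 lower (median −0.0403). Medians over all genes were 0.0139, 0.00991 and 0.00321. Of all genes tested, 24.8% were called higher and 22.4% lower in Sen(IR) against Prol. The shares were 8.76% higher and 12.1% lower with UK5099, and 0.0185% higher and 0.148% lower with CTPI2. The counts of the single role lists below stand beside these same shares.

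**Figure D4:**
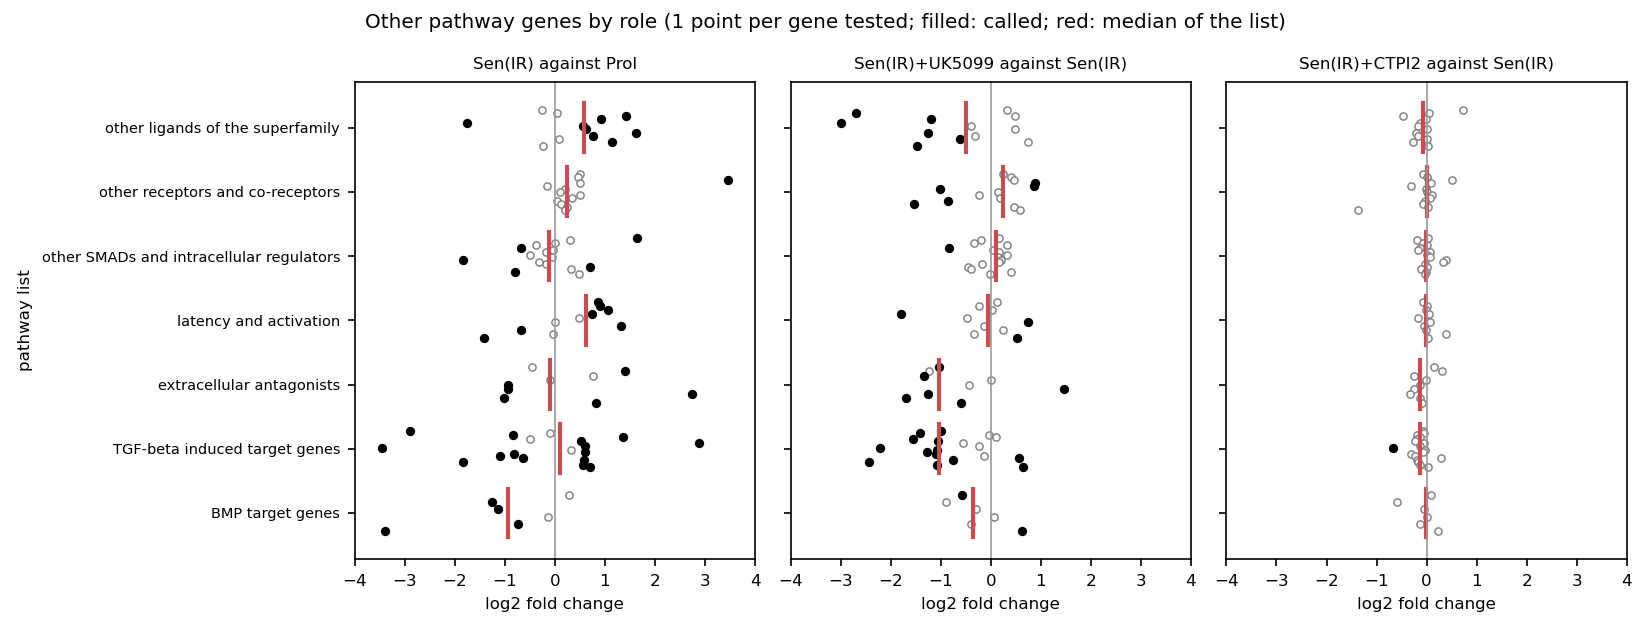
Log2 fold change (horizontal axis) of the other pathway genes by role (rows), 1 point per gene tested, in Sen(IR) against Prol, Sen(IR)+UK5099 against Sen(IR) and Sen(IR)+CTPI2 against Sen(IR). Filled points were called and red lines are list medians. With UK5099 the medians of the extracellular antagonists and of the TGF-beta induced genes are both −1.03, and with CTPI2 the 1 filled point is IL11.

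Ligands outside the 10 genes were more often called higher in Sen(IR), with 7 of 12 tested higher and 1 lower (median 0.58). GDF15, a stress-induced ligand, went from 21.8 to 66.7 CPM (1.61). BMP5 fell by 1.75 from 32.8 to 9.71 CPM. With UK5099, 6 of the 12 were lower and 0 higher (median −0.50), among them BMP5 (−3.00) and BMP2 (−2.69), the latter from 61.7 to 9.56 CPM, both bone morphogenetic proteins. INHBE, another activin subunit, fell by 1.47, at levels of 1.13 and 0.404 CPM.

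Receptors and co-receptors were mostly not called in Sen(IR), with 1 of 13 higher and 0 lower (median 0.25). That 1 was ACVR1C, a type I receptor of the activin group, with 1 to 2 counts per library in Prol and 9 to 29 in Sen(IR). Like INHBB, it passed the filter on low counts only through irradiated libraries, the side on which it was higher, which limits this call. With UK5099 the activin type II receptors ACVR2A (0.88) and ACVR2B (0.87) were called higher. ACVR2A went from 14.8 to 27.2 CPM. Called lower were the BMP co-receptor RGMB (−1.54), the type I receptor ACVRL1 (−1.01) and the TGF-beta co-receptor endoglin, ENG (−0.85), and the median was 0.25.

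Intracellular regulators had 2 of 16 called higher and 3 lower in Sen(IR) (median −0.12). BAMBI, a pseudoreceptor that dampens signalling, rose by 1.64 and the ubiquitin ligase SMURF2 by 0.71, while the inhibitory SMAD6 fell by 1.84, TGIF2 by 0.80 and SKIL by 0.69, the last a corepressor that TGF-beta induces. With UK5099, SKIL alone of the 16 was called, lower by 0.84 (median 0.10).

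Genes of latency and activation had 5 of 10 called higher and 2 lower in Sen(IR) (median 0.62). LTBP3 (1.31), which tethers latent TGF-beta to the matrix, and the integrin subunits ITGB8 (1.05) and ITGAV (0.90), which release it, were higher. THBS1, a matrix protein that can activate the latent form, fell by 1.41 from 3238 to 1218 CPM, and LTBP4 by 0.68. With UK5099, LTBP2 (0.74) and THBS1 (0.53) were higher and LRRC32, which holds latent TGF-beta on the cell surface, fell by 1.80.

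Extracellular antagonists had 3 of 9 called higher and 3 lower in Sen(IR) (median −0.11), and 1 higher and 5 lower with UK5099 (median −1.03). The gene called higher with UK5099 was GREM1, a BMP antagonist, which averaged 1791, 928, 2558 and 780.4 CPM in Prol, Sen(IR), UK5099 and CTPI2 libraries (1.46 against Sen(IR), SE 0.0858, edgeR adjusted p 3.99e-12). In Sen(IR), TWSG1 (0.83), from 383 to 679 CPM, and CHRDL1 (1.39), at 0.162 and 0.433 CPM, both BMP-binding proteins, were called higher than in Prol. CHRDL1 was too low in Prol to pass the filter on low counts there, which limits its call. NOG, which encodes noggin, fell by 1.02 in Sen(IR) and by 1.69 with UK5099. FSTL3, a follistatin-like activin antagonist, fell in Sen(IR) by 0.93.

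TGF-beta induced genes split in Sen(IR), with 8 of 18 called higher and 7 lower (median 0.10). IL11 fell by 3.46 from 110.8 to 10.1 CPM, and the contractile genes ACTA2 and TAGLN by 2.89 and 1.84. COMP, a matrix protein, rose by 2.87 at levels of 0.163 and 1.23 CPM, and the cell cycle inhibitor CDKN2B by 1.35. In Prol, COMP was too low to pass the filter on low counts, which limits its call. With UK5099, 11 of the 18 were called lower and 2 higher (median −1.03). TAGLN fell by 2.44 to 64.3 CPM, IL11 by 2.21 to 2.17 CPM and COL1A1, a main fibrillar collagen, by 1.56 to 1599 CPM, while TSC22D1 (0.65) and PODXL (0.57) were higher. COL1A1 and COL1A2 of this list are also counted among the fibroblast markers.

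IL11 was also the only one of the 84 genes called with CTPI2, falling by 0.67 (SE 0.126, edgeR adjusted p 0.00921) from 10.1 to 6.30 CPM. The call was lost without Sen(IR) replicate 2, Sen(IR) replicate 3 or CTPI2 replicate 2, each of which left 0 of 84. At an unadjusted p under 0.05, with no fold limit, there were 17 of 84, beside 7.27% of all genes tested. BMP target genes had 4 of 6 called lower and 0 higher in Sen(IR) (median −0.94), with ID4 (−3.39), HEY1 (−1.26) and ID1 (−1.14), and with UK5099 ATOH8 fell by 0.58 and ID4 rose by 0.63.

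The genes whose pattern over the 12 libraries was most like that of each of the 10 were found from the root mean square difference of centred log2 CPM. TGFBR2 was closest to TNFRSF10B, with a difference of 0.0451, and to ZNFX1, with 0.0565. For SMAD3 they were TAF7 (0.0471) and CD44 (0.0497), for TGFB1 CSNK1E (0.0516) and CACNB3 (0.0532), and for TGFB2 PCDH7 (0.0793) and BHLHE40 (0.129). INHBA was followed by MMP16 (0.124) and RNF152 (0.146). FST was closest to NUSAP1 (0.190), a mitotic spindle gene, and CDKN2C (0.204), a cell cycle inhibitor. TGFBR1 lay nearest SHOC2 (0.108) and SLC44A1 (0.113), and SMAD7 nearest TRIM25 (0.118) and TRIM5 (0.121). For the low genes TGFB3 and INHBB the smallest differences were 0.270 and 0.355, larger than for the others. The part of counting noise in these values was not tested.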

How the data were processed

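RNA was sequenced from MRC5 cells in 12 libraries, 3 per group, as paired reads of 150 bases. Per the submitters' processing notes and the methods, the authors used Trimmomatic 0.36 for trimming, STAR 2.5.2b for alignment to GRCh38 and featureCounts (Subread 1.5.2) to count uniquely mapped exon reads. The deposited values are raw counts per gene, and 0 columns belonged to other samples. Positions, exon unions and overlaps came from GENCODE v44 (GRCh38), in which 56410 of the 57500 identifiers were found. Strandedness and the annotation release are not given in the sources used here.

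All 12 libraries were fitted together in R 4.3.3 with edgeR 4.0.16 (filterByExpr, TMM, glmQLFit, glmQLFTest), without a replicate term, and p-values were adjusted over 16251 genes. Calls needed an adjusted p under 0.05 and a log2 fold change beyond 0.5 in either direction. The SE is the size of that change over the square root of F. INHBB, near the floor of 3 counts, is given as a ratio of summed counts with an exact 95% interval. Within groups, log2 CPM correlated across genes at 0.991 to 0.992, and counts differed by 2.28 to 13.6 times sampling noise (chi-square per gene). No library copied the counts of another, but these values cannot tell separate cultures from repeat libraries of the same culture.

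The 10 genes were named whatever their change, the other pathway genes by list counts with up to 3 called genes per direction and list, and the likeness of pattern by the 2 nearest genes with a mean log2 CPM above 1. These genes and lists were chosen with earlier results of these data known. Alternatives tried were the DESeq2 1.42.0 Wald test, scaling by RLE or the upper quartile, fits without the filter or with only the compared groups, a replicate block, other limits and leaving out each library. The scripts were tested on simulated data. The other assays of the study were not analysed here, and 1 gene of the lists is counted but not reported here.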

Additional observations from a re-analysis of the deposited data

How the results depend on the processing

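Of 180 recomputed counts of called genes, 164 stayed within 1.5 times the reported count. Of 900 fold changes of the 10 genes under these alternatives, 852 kept their direction and call. Alternatives that changed only a limit reused the same fit, so there only the call could change. Of 40 levels per kb, 33 moved by more than the SD between replicates when MANE Select transcript lengths, chosen after seeing the data, replaced the exon unions, and 7 did not. Requiring a log2 fold change beyond 1 in size lowered the counts most. Among the 10 genes, UK5099 against Sen(IR) went from 5 to 3, UK5099 against CTPI2 from 6 to 3 and UK5099 against Prol from 8 to 4. Among the 84 other pathway genes, Sen(IR) against Prol went from 46 to 22, UK5099 against Sen(IR) from 36 to 22, CTPI2 against Sen(IR) from 1 to 0, UK5099 against CTPI2 from 35 to 21, UK5099 against Prol from 51 to 33 and CTPI2 against Prol from 41 to 24. Without a fold limit, UK5099 against Sen(IR) gave 8 of the 10 genes and 58 of the 84, and UK5099 against CTPI2 55 of the 84. With the limit set on the unadjusted p and the fold limit kept, CTPI2 against Sen(IR) gave 2 of the 84, and leaving out each library gave 0 to 1. Signs turned only among values that were not called. TGFB1 in Sen(IR) against Prol was 0.00271 with DESeq2, 0.00412 with RLE and 0.11 with upper-quartile scaling, and −0.0459 to 0.0316 on leaving out a library. TGFB2 there was 0.10 with upper-quartile scaling and −0.0851 to 0.0443 on leaving out a library. In CTPI2 against Prol, upper-quartile scaling gave 0.00647 for TGFB1 and 0.0598 for TGFBR1, and leaving out a library gave −0.15 to 0.0489 for TGFBR1. Leaving out a library gave −0.0249 to 0.18 for SMAD7 in CTPI2 against Sen(IR), and in UK5099 against CTPI2 −0.39 to 0.19 for TGFB3 and −0.92 to 0.0190 for INHBB. The causes of the sign changes were not tested. Upper-quartile scaling shifted the median of all genes by 0.12 in Sen(IR) against Prol, by 0.14 in UK5099 against Prol and by 0.11 in CTPI2 against Prol, and it ended the SMAD7 call in UK5099 against Prol (−0.42). The INHBB call there was also lost with DESeq2 and without the filter. Deviations of log2 CPM from the group mean correlated at −0.0511 to 0.0423 between same-numbered libraries of different groups, over 18 pairs. These values showed no pairing by replicate number, but with 3 libraries per group they cannot show that the libraries were unpaired. With a replicate block UK5099 against Sen(IR) still gave 5 of the 10 genes and Sen(IR) against Prol 5. Lengths of RefSeq transcripts were planned and not run. The MANE Select lengths used in their place gave an FST to INHBA ratio of 16.8 in Prol and 1.33 in Sen(IR). At this depth INHBB and TGFB3 allow only large changes to be seen.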
